A study of Mus musculus with 7 samples.

Results

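The transcripts of 10 genes that mark or maintain pluripotency, *Nanog*, *Pou5f1*, *Sox2*, *Esrrb*, *Zfp42*, *Sall4*, *Dppa5a*, *Dppa3*, *Tdgf1* and *Tdh*, were examined in skin papillomas of mice with and without an inducible *Nanog* transgene. They were found by symbol and are 10 of the 23284 gene symbols measured. They were chosen by their FPKM in TG against CTR papillomas and by their role in pluripotency, so their difference between the groups is given as a description, without a test. Papillomas of 4 CTR and 3 TG mice of the C57Bl/6 strain were sequenced, with 1 library for each mouse. Both groups carried a *tetO-Nanog* allele, a *Nanog* cDNA behind a doxycycline-responsive element placed downstream of *Col1a1*, and both drank doxycycline (DOX, 2 mg/ml) during the whole DMBA/TPA protocol. TG mice also carried *K5-rtTA*, in which the bovine keratin 5 promoter drives the transactivator, so that DOX turns the allele on in basal cells of stratified epithelia. CTR mice lacked the transactivator. Mice entered the protocol at 8 to 10 weeks of age, received the carcinogen DMBA and then TPA, which promotes tumor growth, for 15 weeks, and were observed for up to 15 further weeks. A papilloma is a whole benign tumor that holds stroma, vessels and immune cells beside keratinocytes, so the driven cells are a part of what was measured.

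NANOG, OCT4 (encoded by *Pou5f1*) and SOX2 are the transcription factors at the center of the pluripotency circuit of embryonic stem cells, where OCT4 and SOX2 bind DNA side by side and maintain each other's genes and *Nanog*. Around them stand ESRRB and SALL4, which act in the same circuit, *Zfp42* (the marker also called *Rex1*), *Dppa3* and *Dppa5a*, markers of the naive state and of germ cells, *Tdgf1*, which encodes CRIPTO, a surface co-receptor for NODAL, and *Tdh*, the threonine dehydrogenase that mouse embryonic stem cells need to break down threonine. In adult skin, SOX2 is known from the dermal papilla, Merkel cells and squamous tumors, and most of the other genes are silent.

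The sequences before the starts of these genes belong to the endogenous alleles, whereas the transgene is a cDNA behind its own element. RefSeq promoter windows (GRCm38.p6) were found for 6 of the 10 members, in 9 windows, and not for *Sall4*, *Dppa5a*, *Dppa3* or *Tdh*. The 250 bases before the start are printed for *Nanog* and *Sox2*, whose TG and CTR papillomas did not overlap, and for *Zfp42*, which carries an octamer core and was listed at 0 in every papilloma. Capitals mark matches to the octamer core TTTGCAT and to the Sox cores ACAATG and ACAAAG, searched on both strands after the sequences had been seen. The window of *Nanog* is chr6:122707239-122707488 and that of *Sox2* is chr3:34649745-34649994, both on the plus strand, and that of *Zfp42* is chr8:43307010-43307259 on the minus strand.
Nanog: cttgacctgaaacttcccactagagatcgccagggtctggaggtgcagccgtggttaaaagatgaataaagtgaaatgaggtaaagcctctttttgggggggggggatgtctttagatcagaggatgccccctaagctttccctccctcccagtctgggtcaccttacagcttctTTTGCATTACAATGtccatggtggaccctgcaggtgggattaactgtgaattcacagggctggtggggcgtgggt
Sox2: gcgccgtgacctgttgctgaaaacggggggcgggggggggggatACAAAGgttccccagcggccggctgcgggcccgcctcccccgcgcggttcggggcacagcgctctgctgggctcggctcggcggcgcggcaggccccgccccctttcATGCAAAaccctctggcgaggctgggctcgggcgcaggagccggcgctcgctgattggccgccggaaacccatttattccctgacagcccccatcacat
Zfp42: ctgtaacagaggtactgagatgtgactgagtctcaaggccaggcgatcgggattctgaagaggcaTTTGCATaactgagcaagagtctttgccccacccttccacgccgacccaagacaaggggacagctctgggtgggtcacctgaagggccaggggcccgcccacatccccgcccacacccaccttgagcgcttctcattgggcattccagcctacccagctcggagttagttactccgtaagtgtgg
In the *Nanog* window printed the octamer core lay 75 to 69 bases before the start of that RefSeq transcript and the Sox core 67 to 62 bases before it, with a single base between them. *Nanog* has another RefSeq window, chr6:122707315-122707564, for a start further downstream, and from that start the same matches lay 151 to 145 and 143 to 138 bases away. The octamer core followed by any base and ACAATG was found in 2 of 32851 RefSeq windows of the same length (0.00609%), which are the overlapping windows of *Nanog* itself. In the *Sox2* window an ACAAAG lay 206 to 201 bases before the start, and the octamer core lay on the minus strand, 99 to 93 bases before it. In the *Zfp42* window the octamer core lay 185 to 179 bases before the start. Of all windows, 4.12% held the octamer core, 10.7% ACAATG and 16.5% ACAAAG. A match describes letters in these windows and is not evidence of binding.

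The authors deposited FPKM values, which scale a gene's fragments to its length and to the size of the library, so levels can be set side by side between genes per length. The width of the Cufflinks intervals implied between 10074859 and 10671027 reads on genes in 5 papillomas, 15622165 in CTR 3 and 15710562 in TG 1. RNA integrity numbers ran from 7.2 to 8.9. TG 3 stood apart from the rest. Its median FPKM was 1.04 against 0.481 to 0.596 in the other papillomas, its summed level of 7 skeletal muscle markers was 510.9 FPKM against at most 2.68, and that of 7 fibroblast markers 686 FPKM against at most 135.3. The keratinocyte label held in all papillomas, with 4717 to 10937 FPKM of *Krt14* and 942 to 1783 FPKM of *Krt5*. A linear model with moderated variances (limma) was fitted to log2(FPKM + 0.5) of TG and CTR papillomas in 12299 genes, those that averaged at least 0.5 FPKM. After Benjamini-Hochberg adjustment it called 0 genes higher and 0 genes lower at a threshold of 0.05, and 598 (4.86%) were higher and 241 (1.96%) lower at an unadjusted p under 0.05. With quality weights for the papillomas the adjusted counts were 49 and 36. Every TG papilloma exceeded every CTR papilloma for 606 genes (4.93%), and lay below every CTR papilloma for 274 genes (2.23%). P-values measure the spread between papillomas of separate mice.

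Of the 10 members, 4 averaged at least 0.5 FPKM over the papillomas (*Nanog*, *Sox2*, *Tdh* and *Dppa5a*), and 6 did not (*Pou5f1*, *Esrrb*, *Zfp42*, *Sall4*, *Dppa3* and *Tdgf1*). *Nanog* was higher in every TG papilloma, *Sox2* was lower in every TG papilloma, and the groups overlapped for *Tdh* and *Dppa5a*. The lack of overlap was known when these genes were chosen, so these counts are not compared with the shares over all genes.

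*Nanog* (chr6:122707568-122713778) was measured at 2.70, 2.84, 12.7 and 3.34 FPKM in CTR 1 to CTR 4. Its values in TG 1 to TG 3 were 36.9, 57.4 and 66.9 FPKM. All TG papillomas lay above all CTR papillomas, and CTR 3 stood above the other CTR papillomas. It averaged 53.7 ± 15.3 FPKM over TG papillomas (SD, n = 3) and 5.41 ± 4.9 FPKM over CTR papillomas (SD, n = 4), a ratio of 9.94 and a difference of 3.45 on the log2(FPKM + 0.5) scale. Without TG 3 the difference was 3.27, and without CTR 3 it was 3.93. The intervals implied about 62 reads of *Nanog* in CTR 1 and 572 in CTR 3, against 1222 to 1413 in TG papillomas, so that its low values rest on the fewest reads. Among 23122 symbols it ranked between 698 and 1298 from the top in TG papillomas and between 3488 and 8484 in CTR papillomas. Reads of the transgene and of the endogenous gene cannot be told apart in these values. Of the 2240 different 40-base stretches in annotated *Nanog* transcripts, 7.41% occur in another annotated gene, 3.39% in the pseudogene *Nanog-ps1*.

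Relative to a keratinocyte gene, the *Nanog* values of the groups did not overlap either. The ratio carries the difference by which *Nanog* was chosen, so it is a description only. *Nanog* amounted to 0.287, 0.168, 0.781 and 0.193% of the FPKM of *Krt5*, the keratin whose promoter drives the transactivator, in CTR 1 to CTR 4. It amounted to 2.08, 5.02 and 3.75% in TG 1, TG 2 and TG 3. *Krt5* itself overlapped between the groups, at 942 to 1730 FPKM in CTR and 1144 to 1783 FPKM in TG papillomas.

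*Sox2* (chr3:34650005-34652460) was measured at 25.3, 14.1, 17.9 and 18.2 FPKM in CTR 1 to CTR 4. Its values in TG 1 to TG 3 were 7.18, 5.28 and 14.1 FPKM. The groups did not overlap, but only just, since TG 3 (14.055 FPKM) and CTR 2 (14.109 FPKM) had nearly the same value and their Cufflinks intervals, 12.7 to 15.4 and 13.0 to 15.2 FPKM, overlapped. It averaged 8.84 ± 4.62 FPKM over TG papillomas (SD, n = 3) and 18.9 ± 4.67 FPKM over CTR papillomas (SD, n = 4), 2.13 times higher in CTR. The log2 difference was -1.13, and it was -1.05, -0.84 and -1.51 without TG 1, TG 2 and TG 3 in turn. In CTR papillomas *Sox2* was the most abundant of the 10 members, and in TG papillomas *Nanog* exceeded it. The ratio of *Nanog* to *Sox2* was 0.107, 0.202, 0.713 and 0.184 in CTR 1 to CTR 4, and 5.15, 10.9 and 4.76 in TG 1 to TG 3. In bulk tissue, fewer cells of a type and less RNA in each cell cannot be told apart.

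Relative to *Trp63*, the gene of the basal keratinocyte factor p63, *Sox2* was 0.438, 0.456, 0.557 and 0.386 in CTR 1 to CTR 4 and 0.184, 0.108 and 0.334 in TG 1 to TG 3, so the groups did not overlap on this ratio. Relative to *Krt14* they overlapped. *Sox2* was 0.460, 0.204, 0.238 and 0.231% of *Krt14* in CTR papillomas and 0.0656, 0.0698 and 0.298% in TG papillomas, with TG 3 above 3 of the 4 CTR papillomas. *Sox2ot*, a noncoding RNA whose locus holds *Sox2* on the same strand, was at 0.213 to 0.280 FPKM in CTR papillomas and 0.0753, 0.0717 and 0.224 FPKM in TG 1 to TG 3, below the minimum for the test. Markers of other skin cells known for *Sox2* are given beside it. The summed FPKM of 6 measured Merkel cell genes was 0.863 to 8.42 in CTR papillomas and 5.37, 3.44 and 32.5 in TG 1 to TG 3, with *Atoh1*, their defining factor, listed at 0 in all 7 papillomas. That of 7 dermal papilla genes was 4.94 to 16.7 in CTR papillomas and 19.6, 9.29 and 31.6 in TG 1 to TG 3. Both sums were highest in TG 3. In the Merkel cell sum this came from *Krt18* (23.3 FPKM) and *Krt8* (8.27 FPKM), keratins of simple epithelia, and only these 2 of the 6 genes were highest in TG 3. *Chga* was lowest there (0.206 FPKM), *Krt20* was highest in CTR 3 (0.529 FPKM) and *Isl1* in CTR 2 (1.17 FPKM). Of the dermal papilla genes, 6 of 7 were highest in TG 3, with *Crabp1* the most abundant (27.8 FPKM). Highest there too were 6 of 7 fibroblast, 7 of 7 skeletal muscle, 5 of 5 endothelial and 4 of 7 basal keratinocyte markers. Of the suprabasal markers, 0 of 7 were. The count is thus not particular to dermal papilla genes, and the share of all genes highest in TG 3 was not counted. The part of these cells in the *Sox2* difference was not tested. No 40-base stretch of *Sox2* occurs in another annotated gene.

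**Figure D1:**
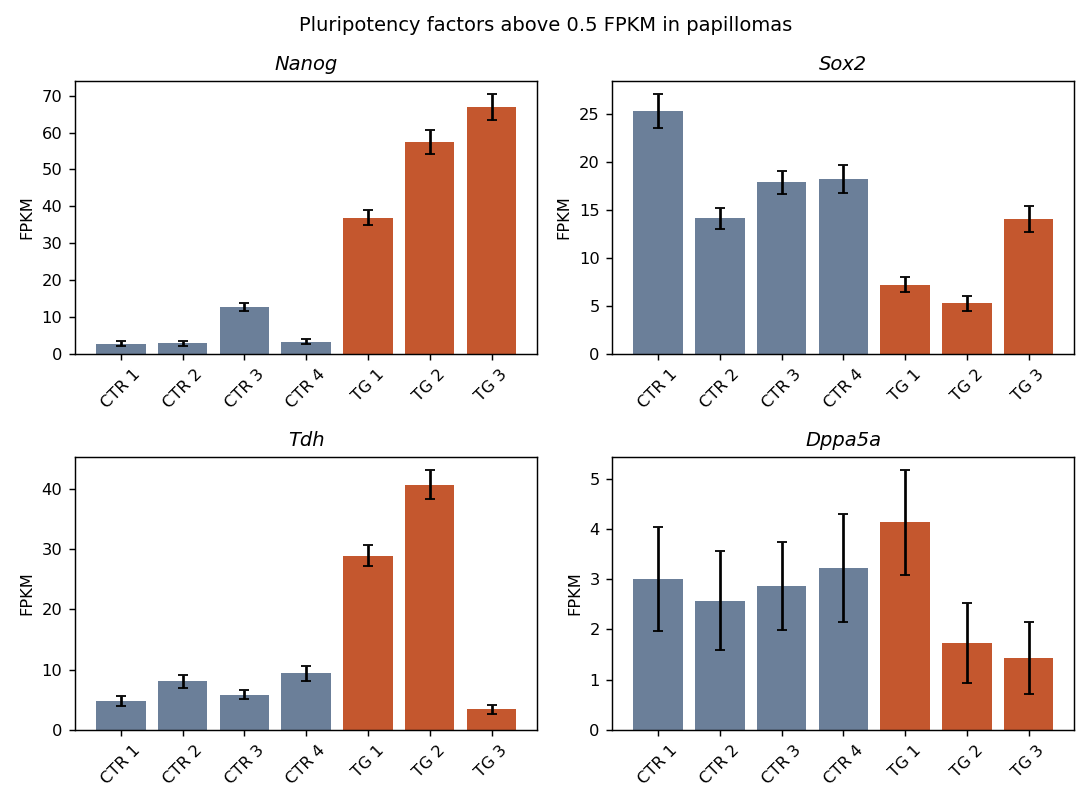
FPKM of the 4 members above 0.5 FPKM (vertical axes, each with its own range) in 4 CTR (blue) and 3 TG (orange) papillomas, with 1 bar for each papilloma and error bars for its Cufflinks interval. *Nanog* lies between 36.9 and 66.9 FPKM in TG and between 2.70 and 12.7 FPKM in CTR papillomas, *Sox2* is lower in TG papillomas, and TG 3 differs from TG 1 and TG 2 in *Tdh*.

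**Figure D2:**
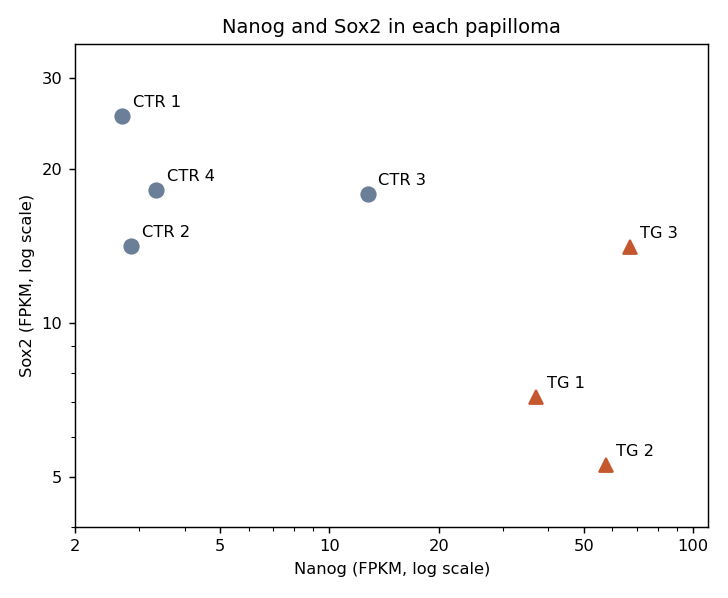
*Sox2* (vertical axis, FPKM, log scale) against *Nanog* (horizontal axis, FPKM, log scale), with 1 point for each of 7 papillomas (circles CTR, triangles TG). The TG papillomas lie to the right of and below the CTR papillomas, and TG 3 (66.9 FPKM of *Nanog*) has nearly the *Sox2* level of CTR 2.

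Over the 7 papillomas, Pearson's r between *Nanog* and *Sox2* on the log2(FPKM + 0.5) scale was -0.72 and Spearman's rho -0.79. These values describe points that fall into the TG and CTR groups, and within TG papillomas the sample with the most *Nanog* (TG 3) also had the most *Sox2*.

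*Pou5f1* (chr17:35506032-35510777), the gene of OCT4, was listed at 0 in 6 papillomas and at 0.0515 FPKM in TG 3. That value corresponds to 0.638 of a read. *Pou5f2*, its germ cell relative, was at most 0.0796 FPKM. Of the 40-base stretches of *Pou5f1*, 11.4% occur in another annotated gene. *Pou5f1* was thus not detectable at this depth in either group, while *Nanog* reached 66.9 FPKM in the same libraries.

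*Esrrb* (chr12:86361117-86521628), a nuclear receptor of the naive circuit, was listed at 0 in 6 papillomas and at 0.0142 FPKM in CTR 1. *Sall4* (chr2:168748332-168767201), a zinc finger partner of NANOG, was listed at 0 in 6 papillomas and at 0.0239 FPKM in TG 3. Each of these values corresponds to less than 1 read. *Zfp42* (chr8:43295067-43307009) was listed at 0 in all 7 papillomas.

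*Dppa3* (chr6:122626424-122630271), which encodes STELLA, a protein of oocytes, early embryos and germ cells, lies 77.3 kb from *Nanog*. It was 0.0652 FPKM in CTR 4, 0.0777 in TG 2 and 0.0690 in TG 3, about 1 read each, and was listed at 0 in the other papillomas. *Tdgf1* (chr9:110939608-110946158) was 0.0559 FPKM in TG 2, about 2 reads, and was listed at 0 in the other 6 papillomas. Processed pseudogenes share 22.9% of the 40-base stretches of *Dppa3* (*Dppa3-ps*) and 10.7% of those of *Tdgf1* (*Tdgf1-ps1*), so the locus of origin of these reads is uncertain. Over the 6 low members, 35 of 42 values were listed at 0 and the highest was 0.0777 FPKM. Intervals and reads cover counting error only, and no fold was formed at this level.

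**Figure D3:**
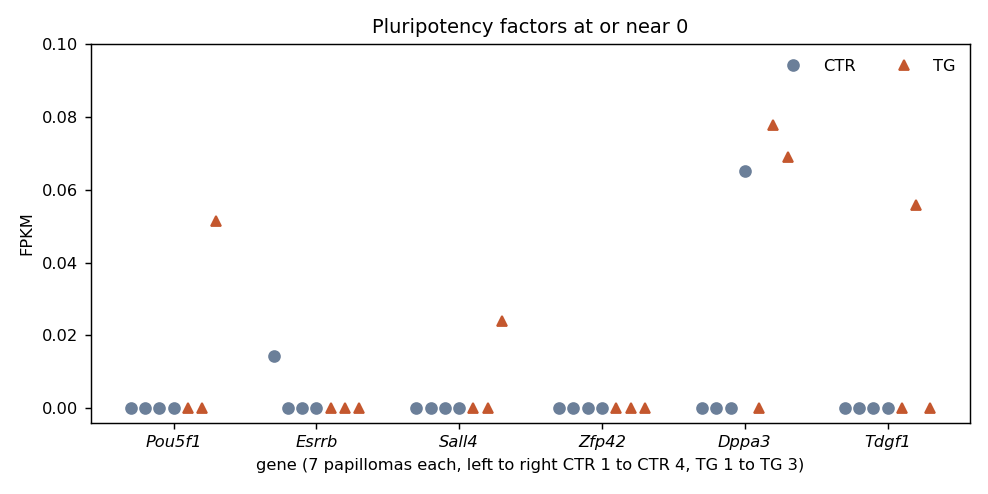
FPKM (vertical axis) of the 6 members below the minimum of 0.5 FPKM, with 1 point for each of 7 papillomas per gene (circles CTR, triangles TG). 35 of the 42 points lie at 0, and the highest, *Dppa3* in TG 2, is at 0.0777 FPKM.

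*Dppa5a* (chr9:78367054-78368199), the gene of an RNA-binding protein of embryonic stem cells, was measured at 3.01, 2.58, 2.87 and 3.23 FPKM in CTR 1 to CTR 4. Its values in TG 1 to TG 3 were 4.14, 1.73 and 1.43 FPKM. TG 1 lay above and the other TG papillomas below the narrow CTR range. It averaged 2.43 ± 1.48 FPKM over TG papillomas (SD, n = 3) and 2.92 ± 0.273 FPKM over CTR papillomas (SD, n = 4), with a log2 difference of -0.33. The values rest on 16 to 62 reads. They are uncertain in origin, because 48.4% of the 580 different 40-base stretches of *Dppa5a* occur in other annotated genes, with 16.7% of the 580 found in *Pigp* and 14.5% each in *Dppa5b* and *Dppa5c*. The genes nearest to its profile were *Ddx49* (r = 0.957 over 7 papillomas), *0610010K14Rik* (0.953), *Cops8* (0.948), *Rpl3* (0.945) and *D17Ertd648e* (0.942). *Rpl3*, a ribosomal protein gene, was 571 to 608 FPKM in CTR papillomas and 697, 511 and 460 FPKM in TG 1 to TG 3.

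*Tdh* (chr14:63492347-63509092) was measured at 4.72, 8.02, 5.84 and 9.39 FPKM in CTR 1 to CTR 4. Its values in TG 1 to TG 3 were 29.0, 40.8 and 3.37 FPKM. TG 1 and TG 2 lay above all CTR papillomas and TG 3 below all of them, so the groups overlapped, and the TG value exceeded the CTR value in 8 of the 12 possible pairs. It averaged 24.4 ± 19.1 FPKM over TG papillomas (SD, n = 3) and 6.99 ± 2.10 FPKM over CTR papillomas (SD, n = 4), with a log2 difference of 1.20. The difference was 0.80 without TG 1, 0.55 without TG 2 and 2.26 without TG 3. The lowest value rests on 88 reads and the highest values on 1158 in TG 1 and 1098 in TG 2. The pseudogene *Gm13929* shares 13.3% of the 40-base stretches of *Tdh*.

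The levels of *Tdh* and *Nanog* took different orders. The ratio of *Tdh* to *Nanog* was 0.785, 0.710 and 0.0503 in TG 1 to TG 3, and r between them was 0.39 (rho 0.14) over the 7 papillomas. Genes of differentiating keratinocytes are given beside *Tdh*. Of the 7 suprabasal markers measured, 6 lay above all CTR papillomas in TG 1 and 5 in TG 2, and 5 lay below all of them in TG 3. The share of all genes that lay outside the CTR range in a single papilloma was not counted. These counts therefore describe the markers and cannot be set against a background. *Krt10*, a keratin of the suprabasal layers, was 917 to 1440 FPKM in CTR papillomas and 3150, 3133 and 181 FPKM in TG 1 to TG 3. *Krt1*, its partner, was 187 to 807 FPKM in CTR papillomas and 1517, 3309 and 133 FPKM in TG 1 to TG 3. Other markers took other orders. *Lor*, the gene of loricrin in the cornified envelope, was 622, 1255, 1555 and 618 FPKM in CTR 1 to CTR 4 and 1329, 690 and 366 FPKM in TG 1 to TG 3, so it lay inside the CTR range in TG 2, where *Tdh* was highest. *Krt6a*, a keratin of hyperproliferative epidermis, was also inside the CTR range in TG 2 (5959 FPKM), and *Ivl*, the involucrin gene, was above every CTR papilloma in TG 3 (36.4 FPKM), where *Tdh* was lowest. The summed FPKM of the 7 markers, most of it from *Krt6a* and *Krt16*, was 15771 to 17018 in CTR papillomas and 24459, 20703 and 10539 in TG 1 to TG 3. The part of these cells in the *Tdh* values was not tested. Between *Sox2* and *Tdh*, r was -0.88 and rho -0.54.

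The next enzyme of threonine breakdown, encoded by *Gcat*, was 17.6, 12.2, 17.5 and 17.4 FPKM in CTR 1 to CTR 4 and 36.1, 17.1 and 9.93 FPKM in TG 1 to TG 3. *Gcat* therefore exceeded *Tdh* in 6 papillomas, and the ratio of *Tdh* to *Gcat* was above 1 only in TG 2 (2.38). Of the 13 genes of threonine and glycine breakdown, 8 were tested, and 0 were higher and 0 lower at an unadjusted or an adjusted p under 0.05 in limma, against 4.86% higher and 1.96% lower of all tested genes at an unadjusted p, from which so short a list cannot be told apart. *Mthfd1*, a folate enzyme, was 11.6, 11.4, 13.5 and 13.1 FPKM in CTR papillomas and 6.88, 6.70 and 15.3 FPKM in TG papillomas, a log2 difference of -0.45. It was -0.27, -0.25 and -0.82 without TG 1, TG 2 and TG 3 in turn (adjusted p = 0.724, 0.999 and 0.109 from limma). *Shmt1*, which passes the carbon of serine to folate, was 9.56 to 14.4 FPKM in CTR and 8.16 to 10.8 FPKM in TG papillomas, and differed by -0.39 on the log2 scale (adjusted p = 0.784 in limma). Over the 8 genes, the log2 difference had a median of -0.20, against 0.06 over all tested genes.

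**Figure D4:**
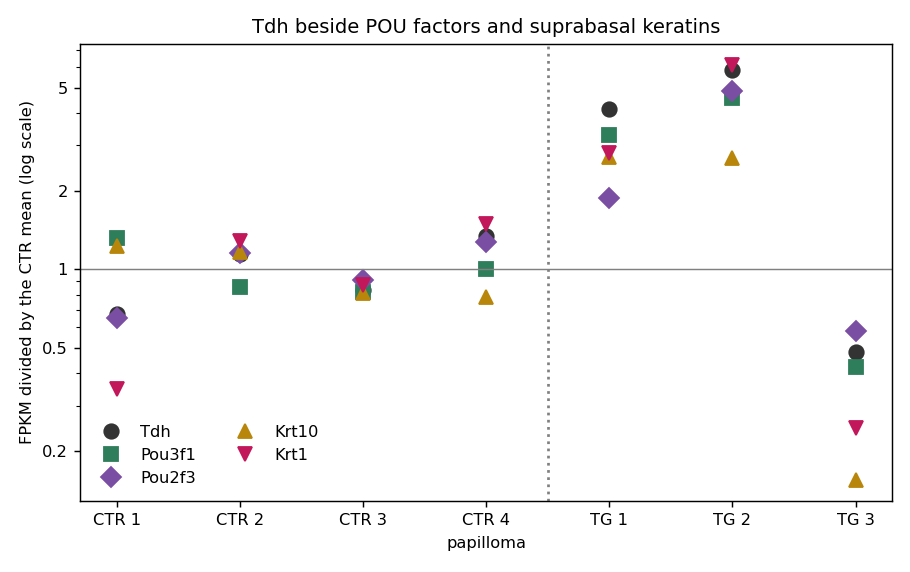
FPKM divided by the mean of the 4 CTR papillomas (vertical axis, log scale) for *Tdh*, *Pou3f1*, *Pou2f3*, *Krt10* and *Krt1* in each papilloma (horizontal axis; the dotted line parts CTR from TG). All 5 genes are above 1 in TG 1 and TG 2 and below 1 in TG 3. Of the 7 suprabasal markers, *Krt16* and *Dsg1a*, not shown, were on the same sides of their CTR means. *Ivl* was above its CTR mean in TG 3, and *Lor* and *Krt6a* were below theirs in TG 2. *Pou2f1*, the other POU factor tested, was below its CTR mean in TG 1 and TG 2 and above it in TG 3.

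To see whether other genes of the network and its relatives differed, 10 lists with 126 genes were taken from the same fit. 70 of the genes were tested, of which 5 were higher and 0 lower at an unadjusted p under 0.05, against 4.86% and 1.96% of all tested genes, and 0 passed in limma after adjustment. 2 genes, *Stat3* and *Inhbb*, were higher in every TG papilloma, against 4.93% of all tested genes, and 0 were lower in every TG papilloma. The median log2 difference was 0.09 over the 70 genes and 0.06 over all tested genes. Without TG 3, 4 were higher and 4 lower at an unadjusted p under 0.05, and *Pou3f1* passed after adjustment.

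Among 30 further factors of the core circuit and the naive state, 12 were tested and 16 never reached 0.5 FPKM, among them *Nr0b1*, *Prdm14*, *Dppa4*, *Eras* and *L1td1*, which were listed at 0 in all papillomas. The abundant ones are factors that epidermis uses as well. *Klf4* was 118 to 215 FPKM, *Klf5* 28.6 to 64.9 FPKM and *Myc* 28.9 to 44.9 FPKM, and for each of them the groups overlapped. *Stat3*, which carries the LIF signal in embryonic stem cells, was 20.1, 19.8, 20.1 and 24.0 FPKM in CTR papillomas and 28.2, 34.4 and 33.2 FPKM in TG papillomas. Its log2 difference was 0.59 with a standard error of 0.15, and it did not pass after adjustment (adjusted p = 0.564 in limma). *Klf2* was the other gene of this list with an unadjusted p under 0.05, at 0.350 to 1.59 FPKM in CTR and 1.22 to 3.37 FPKM in TG papillomas (log2 difference 0.92, adjusted p = 0.713 from limma). Of all tested genes 4.86% were higher at that threshold, a share from which so short a list cannot be told apart. *Dnmt3l*, a cofactor of DNA methyltransferases in germ cells and an example chosen after its values were seen, was highest in TG 1 and lowest in TG 3, with 1.36 to 1.48 FPKM in CTR papillomas and 6.54, 3.40 and 0.784 FPKM in TG 1 to TG 3. Its log2 difference was 0.78, and it was 0.23, 0.66 and 1.46 without TG 1, TG 2 and TG 3 in turn (adjusted p = 0.836, 0.982 and 0.0824 from limma).

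Of 23 proteins known to bind NANOG, 21 were tested, and 0 were higher and 0 lower at an unadjusted or an adjusted p under 0.05 in limma, against 4.86% higher and 1.96% lower of all tested genes at an unadjusted p, so the count is near the background. Their median log2 difference was 0.05. The largest were 0.37 for *Rest*, a repressor of neural genes, and 0.32 for *Gatad2b*, a subunit of the NuRD complex, with both groups overlapping and the highest value in TG 3, and without TG 3 they were 0.03 and 0.08.

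Of 19 genes of NODAL and CRIPTO signaling, 11 were tested. *Nodal*, *Cfc1* and *Foxh1* were listed at 0 or were at most 0.045 FPKM, and *Lefty1*, an inhibitor of NODAL, was 1.24 to 2.63 FPKM with overlapping groups. *Inhbb*, an activin subunit, was 1.79, 1.95, 1.24 and 2.48 FPKM in CTR papillomas and 2.67, 3.03 and 3.12 FPKM in TG papillomas. All TG papillomas were above all CTR papillomas, with a log2 difference of 0.57 that did not pass after adjustment (adjusted p = 0.702 in limma). It was the 1 gene of the list with an unadjusted p under 0.05.

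Among the relatives of *Sox2*, *Sox1* and *Sox3*, its closest paralogs, were at or near 0, and 6 of 8 Sox genes were tested. *Sox15*, which keratinocytes express, was the most abundant at 22.6 to 46.6 FPKM, with overlapping groups. *Sox18*, known from endothelium, was 1.21 to 3.13 FPKM in CTR papillomas and 4.07, 2.68 and 3.35 FPKM in TG papillomas (log2 difference 0.73, adjusted p = 0.705 from limma). *Sox7*, of the same subgroup, was 5.72 to 14.0 FPKM in CTR and 10.3 to 14.8 FPKM in TG papillomas (log2 difference 0.59). The summed FPKM of 5 endothelial markers was 5.79 to 9.71 in CTR papillomas and 13.6, 8.38 and 23.9 in TG 1 to TG 3, and its part in these values was not tested.

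Of 7 POU factors beside the OCT4 gene, 3 were tested, and 2 of them, as *Tdh*, were highest in TG 2 and lowest in TG 3. *Pou3f1*, a factor of differentiating keratinocytes, was 4.46, 2.89, 2.78 and 3.38 FPKM in CTR papillomas and 11.1, 15.4 and 1.42 FPKM in TG papillomas. *Pou2f3*, known from suprabasal epidermis, was 1.24, 2.19, 1.73 and 2.42 FPKM in CTR papillomas and 3.58, 9.20 and 1.09 FPKM in TG papillomas. TG 1 and TG 2 were above all CTR papillomas and TG 3 below all of them. The log2 differences were 0.89 for *Pou3f1* and 0.76 for *Pou2f3* (adjusted p = 0.842 for each from limma). Without TG 3 they were 1.83 (adjusted p = 0.0462 from limma) and 1.42 (adjusted p = 0.192 from limma), and without TG 2 they were 0.31 and 0.12.

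Of 5 relatives of *Esrrb*, 3 were tested, with overlapping groups and log2 differences of -0.12 for *Nr6a1* and -0.07 for *Nr2f2*. The sign of *Nr2f2* changed without TG 1 (0.19) or TG 2 (0.12). Of 3 other Sall genes, *Sall2* was tested (0.378 to 0.862 FPKM in CTR and 0.467 to 1.19 FPKM in TG papillomas, a log2 difference of 0.11 that was -0.13 without TG 3).

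Of 10 early lineage factors, 7 never reached 0.5 FPKM and 2 were tested. *T*, *Cdx2*, *Foxa2* and *Otx2* were listed at 0 in all papillomas. *Hand1*, a factor of trophoblast and heart, was 0 to 0.339 FPKM in CTR papillomas and 0.0699, 5.43 and 10.4 FPKM in TG 1 to TG 3 (log2 difference 2.44, adjusted p = 0.687 from limma). TG 1 lay inside the CTR range. The difference was 3.72, 2.03 and 1.59 without TG 1, TG 2 and TG 3 in turn, and passed without TG 1 alone (adjusted p = 0.0365, 0.848 and 0.572 from limma), the papilloma that went against it. *Eomes* was 0.214 to 1.19 FPKM in CTR papillomas and was above that range in TG 1 and TG 3 (1.52 FPKM) and inside it in TG 2 (0.259 FPKM), with a log2 difference of 0.66 that fell to 0.093 without TG 1 and was 1.29 without TG 2. Of the germ cell genes, 3 of 9 were tested and 4 never reached 0.5 FPKM. *Prdm1*, which skin also uses, was 6.86 to 16.2 FPKM, *Tfap2c* was at least 8.62 FPKM and *Dnd1* was 0.884 to 1.74 FPKM. *Dnd1* differed by 0.31, *Prdm1* by 0.15 and *Tfap2c* by 0.0025 on the log2 scale, with overlapping groups.

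**Figure D5:**
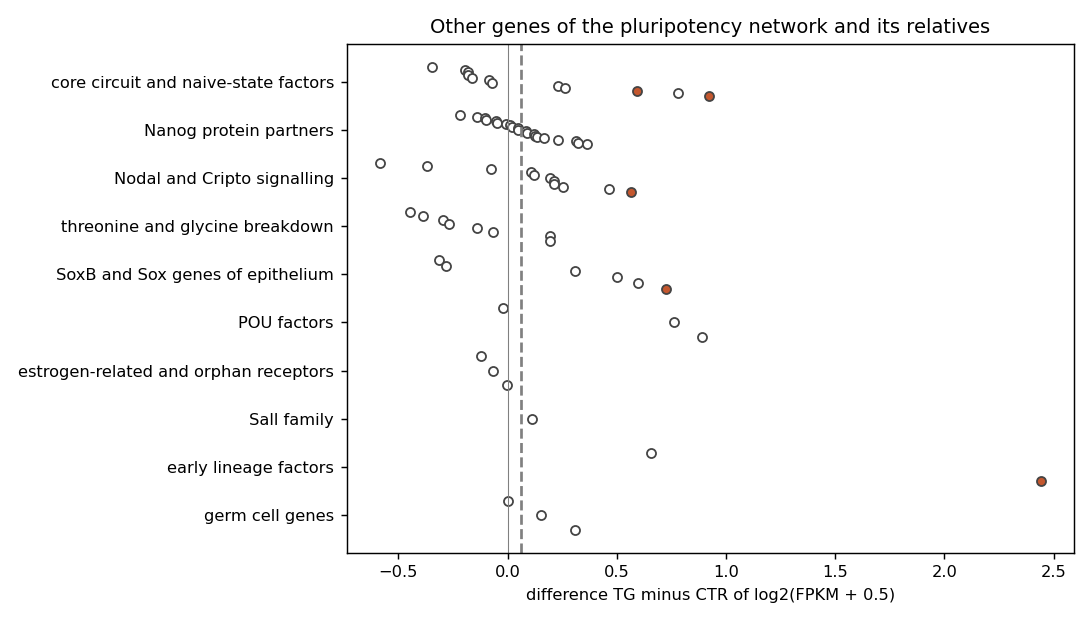
Log2 difference of TG minus CTR (horizontal axis, log2(FPKM + 0.5)) for the tested genes of the 10 lists, with 1 point per gene, filled where the unadjusted p was under 0.05, and a dashed line at the median of all tested genes (0.06). The 5 filled points, from 0.57 for *Inhbb* to 2.44 for *Hand1*, all lie above 0.

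The difference of *Nanog* was set beside its neighbors on the chromosome. Of 12 other genes within 250 kb, 8 were tested, and 0 were higher and 0 lower at an unadjusted or an adjusted p under 0.05 in limma, against 4.86% higher and 1.96% lower of all tested genes at an unadjusted p. With 8 genes, a count of 0 does not stand apart from these shares. *Slc2a3*, a glucose transporter 14 kb away, was 0.184, 0.204, 0.445 and 0.182 FPKM in CTR papillomas and 0.145, 0.366 and 2.09 FPKM in TG papillomas. *Foxj2*, 106.4 kb away, was the 1 tested neighbor higher in every TG papilloma, against 4.93% of all tested genes, at 3.00 to 3.86 FPKM in CTR and 3.96, 4.32 and 4.88 FPKM in TG papillomas (log2 difference 0.29, adjusted p = 0.826 from limma). *Apobec1*, an RNA-editing enzyme 105.1 kb away, was 2.76 to 4.68 FPKM in CTR papillomas and 4.15, 4.70 and 11.4 FPKM in TG papillomas. *Gdf3*, a pluripotency-associated ligand 97.5 kb away, did not exceed 0.714 FPKM. *Slc2a3*, *Apobec1*, *Gdf3*, *Mfap5*, *C3ar1*, *Clec4a1* and *Clec4a3* each had their highest value in TG 3, as had *Necap1* (5.39 FPKM).

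The tested genes whose profile over the 7 papillomas was most like that of *Nanog*, by Pearson's r of log2(FPKM + 0.5), were *Prkcz* (0.979), which encodes an atypical protein kinase C, the kinesin gene *Kif9* (0.966), the histone deacetylase gene *Hdac7* (0.965), the ETS factor gene *Elk1* (0.965) and *Krt75* (0.961), a keratin of the hair follicle companion layer. Each of them was higher in every TG papilloma, as were 4.93% of all tested genes. Their choice by likeness to *Nanog* favors this, so it is not a separate result. *Krt75* was 0.665, 0.804, 2.20 and 1.45 FPKM in CTR papillomas and 3.13, 4.45 and 3.60 FPKM in TG papillomas, with CTR 3 the highest CTR papilloma as for *Nanog*. *Hdac7* was 3.43 to 4.64 FPKM in CTR and 6.27 to 7.73 FPKM in TG papillomas. Nearest to *Sox2* were the histone chaperone gene *Nap1l1* (0.993), *Mrps30* (0.990), which encodes a protein of the mitochondrial ribosome, *Camsap3* (0.980), *St7* (0.980) and *Actr8* (0.962). *Nap1l1* was 87.8 to 102.3 FPKM in CTR papillomas and 67.1, 59.2 and 83.2 FPKM in TG papillomas. TG 3 was the TG papilloma closest to CTR, which repeats the order of *Sox2* by which *Nap1l1* was chosen. Nearest to *Tdh* were *6720468P15Rik* (0.986), *Osbpl1a* (0.981), *Slc16a14* (0.979), *Ppapdc2* (0.977) and *BC117090* (0.973). *Slc16a14*, of the monocarboxylate transporter family, was 0.324 to 0.689 FPKM in CTR papillomas and 2.16, 3.53 and 0.252 FPKM in TG papillomas. With 7 points, 12299 genes to choose from and TG and CTR levels that differ, values this close to 1 are a description of the order of the papillomas.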

How the data were processed

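RNA from papillomas of 4 CTR and 3 TG mice was analysed, 1 library each, with groups and replicate numbers from the labels. The authors made stranded polyA+ libraries, read 40 bases from a single end, aligned them to GRCm38/mm10 with TopHat2 2.0.4, Bowtie 0.12.7 and SAMtools 0.1.16 (2 mismatches, 5 hits), ran Cufflinks 1.3.0 and deposited FPKM values per gene with intervals. The strand setting of Cufflinks is not given in the sources used here. The paper took differential expression from Cufflinks, which works on aligned reads, and limma was used here in its place. With its method the paper lists *Nanog*, *Tdh*, *Hand1*, *Ivl* and *Hdac7* among the genes upregulated in TG papillomas at an FDR under 0.05. The absence of calls here is that of the main limma fit on FPKM. Why the calls differ from those of the paper was not tested.

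Entries of a symbol were summed (240 symbols), and 162 symbols with a failed estimate in any papilloma were left out, *Pigp* among them. Reads were implied from each FPKM and the width of its interval, at 10074859 to 15710562 per papilloma, and are approximate. Values were transformed to log2(FPKM + 0.5) and fitted with limma 3.58.1 (R 4.3.3), with a variance trend, 2-sided tests and Benjamini-Hochberg adjustment, after a check on simulated data. Python 3.11.15, pandas 2.3.3, numpy 2.4.6, scipy 1.17.1 and matplotlib 3.10.9 were used. Shared stretches of 40 bases were counted in annotated transcripts of GENCODE vM21.

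Members, gene lists and marker lists were chosen with earlier results of these data known. Named were the members, in each list up to 4 tested genes without overlap of the groups or else the 2 with the largest difference, the 5 genes most correlated with each tested member, genes within 250 kb of *Nanog*, and markers. Other genes named were chosen after their values were seen. There were 20 alternatives to the fit, and counts over the lists under them were added after seeing the data.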

Additional observations from a re-analysis of the deposited data

Results flagged for a closer look

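In the 29 genes whose 4 CTR papillomas were examined, 4 had a papilloma far from the others by Dixon's ratio, the gap to the nearest value divided by the range. Chance gives about 1 such group in 20. *Nanog* had the ratio 0.936 for CTR 3 (12.7 FPKM against 2.70 to 3.34). CTR 3 is 1 of the 2 more deeply read libraries, with TG 1, and the part of depth in this value was not tested. *Slc2a3*, the nearest gene to *Nanog* tested, had the ratio 0.919, also for CTR 3 (0.445 FPKM against 0.182 to 0.204). *Stat3* had the ratio 0.910 for CTR 4 (24.0 FPKM against 19.8 to 20.1), which still lay below every TG papilloma. *Apobec1* had the ratio 0.955 for CTR 2 as its lowest value (2.76 FPKM against 4.59 to 4.68).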

How the results depend on the processing

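The log2 differences of the 4 members above the minimum kept their sign under all 20 alternatives, at 3.25 to 4.18 for *Nanog*, -1.59 to -0.84 for *Sox2*, 0.55 to 2.26 for *Tdh* and -0.73 to -0.09 for *Dppa5a*. The groups of *Dppa5a* ceased to overlap (TG lower) without TG 1 or in the papillomas of lower depth, and those of *Tdh* (TG higher) without TG 3. At an adjusted p under 0.05 limma called 49 genes higher and 36 lower with quality weights, and 1 higher and 0 lower in the papillomas of lower depth. Leaving out 1 papilloma gave 0 to 9 higher and 0 to 8 lower, with 9 and 8 without TG 3. At an unadjusted p under 0.05 the counts were 954 higher and 315 lower without a filter, 495 and 439 after upper-quartile scaling, 391 and 562 after quantile normalization, 1161 and 1248 with quality weights, and 627 and 522 without TG 3. Without CTR 3 they were 364 and 134, and without TG 2 the lower count was 121. Every TG papilloma exceeded every CTR papilloma for 956 genes without a filter, 386 after quantile normalization and 1872 at lower depth, and lay below for 545 after upper-quartile scaling, 700 after quantile normalization and 1003 at lower depth. With fewer papillomas such separation is easier to reach. Of the genes on the lists, 0 to 1 passed as higher after adjustment and 0 as lower when 1 papilloma was left out, and 3 to 5 were higher and 0 to 4 lower at an unadjusted p under 0.05. The unadjusted list counts were 2 higher and 2 lower after quantile normalization, 9 and 7 with quality weights and 2 and 0 at lower depth, and 2 were lower after upper-quartile scaling. The replicate numbers were not treated as a pairing. Same-numbered papillomas deviated from their group means with correlations of -0.19, 0.04 and -0.15. Those of differently numbered papillomas ran from -0.22 to 0.31, the highest for CTR 3 and TG 1, the more deeply read libraries. So few correlations cannot settle whether the numbers pair the mice. In a fit with a block for the replicate number, 505 genes were higher and 170 lower at an unadjusted p under 0.05, 0 passed after adjustment, 3 genes of the lists were higher and 1 lower, and the differences were 3.34 for *Nanog*, -1.14 for *Sox2*, 1.35 for *Tdh* and -0.29 for *Dppa5a*. *Gcat* (0.19, and -0.28 without TG 1), *Klf4* (-0.09, and 0.14 without TG 3) and *Klf5* (-0.07, and 0.12 without TG 1) changed sign. They and other genes named after their values were seen are outside the count that follows. In 20 cases a gene named by its difference in a list, by likeness to a member or as a neighbor of *Nanog* changed sign, and the cause was not tested. At lower depth these were *Nr6a1* (0.015) and *Nr2f2* (0.23). After quantile normalization they were *Sall2* (-0.10), *C3ar1* (-0.014) and *Necap1* (-0.040), with *Necap1* also after upper-quartile scaling (-0.019). With quality weights they were *Sall2* (-0.23), *Eomes* (-0.40) and *C3ar1* (-0.29). Over the fits that left out 1 papilloma, *Nr2f2* ran from -0.52 to 0.19, *Sall2* from -0.13 to 0.27, *Prdm1* from -0.060 to 0.40, *0610010K14Rik* from -0.35 to 0.0049, *Rpl3* from -0.27 to 0.027, *C3ar1* from -0.34 to 0.51, *Necap1* from -0.046 to 0.17 and *Clec4a3* from -0.13 to 0.93. *Slc16a14* passed with quality weights (log2 difference 1.79, adjusted p = 0.0453 from limma). Its difference in the main fit was 1.02, with TG 3 below all CTR papillomas. It was chosen by its likeness to *Tdh* over these same papillomas, so this p-value is a description only.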

Other observations

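Some genes of the lists lay below the minimum of 0.5 FPKM but did not overlap between the groups, and are given as values chosen after they were seen. Without a filter on low values, every TG papilloma exceeded every CTR papilloma for 956 of 19124 genes and lay below for 324. *Sox17*, a factor of endoderm and endothelium, was 0.171 to 0.239 FPKM in CTR papillomas and 0.513, 0.472 and 0.622 FPKM in TG 1 to TG 3, beside the endothelial markers given above. *Tet1*, a methylcytosine dioxygenase of embryonic stem cells, was 0.0195 to 0.0352 FPKM in CTR papillomas and 0.0460, 0.0437 and 0.110 FPKM in TG papillomas. *Pou6f1* was 0.0957 to 0.426 FPKM in CTR papillomas and 0.511, 0.926 and 0.446 FPKM in TG papillomas. *Nr2f1* was 0 to 0.0797 FPKM in CTR papillomas and 0.176, 0.122 and 0.187 FPKM in TG papillomas. *Nanos3*, a germ cell gene whose groups overlapped, was 0.0806 to 0.178 FPKM in CTR papillomas, 0.642 in TG 1 and 0.329 in TG 2 and was listed at 0 in TG 3.

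*Ivl*, the involucrin gene of the cornifying layers, was 17.7 to 26.8 FPKM in CTR papillomas and 159, 108 and 36.4 FPKM in TG 1 to TG 3. It was the 1 suprabasal marker of 7 tested that was higher in every TG papilloma (log2 difference 2.01, adjusted p = 0.538 from limma). Of all tested genes 4.93% were, and so short a list cannot be told apart from this share. *Krt10* and *Krt1* were lowest of all in TG 3.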
